A study of Mus musculus with 9 samples.

Results

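Genes of antigen presentation and the interferon response were followed in dissected midbrain of 180-day-old mice with 3 Dot1l genotypes. The 9 members were B2m, H2-K1, H2-D1, Cd74, Irf7, Ifit1, Ifit3, Bst2 and Ifi27, chosen by gene symbol from the 47729 gene identifiers of each count file, and all 9 passed the filter on low counts that left 17671 genes to be tested. Mice of every group, on C57/Bl6, carried Pitx3-Cre/+ and a Rosa-lox-stop-lox-Yfp reporter, and they differed in Dot1l, which encodes a histone methyltransferase: both alleles intact in Dot1l(+/+), 1 of them floxed in Dot1l(fl/+) and 2 floxed in Dot1l(fl/fl). There were 3 libraries per genotype, and each pooled tissue from 3 mice, which makes the pool the unit of replication. Cre came from the Pitx3 locus, which is active in post-mitotic dopamine neurons, so by design other cells of the dissected tissue, such as microglia and vessels, do not recombine Dot1l, which was not checked here. The labels speak of dissected midbrain dopamine neurons, but markers of oligodendrocytes summed to 10186 to 11692 CPM (counts scaled to a common library size) and those of dopamine neurons to 466 to 681 CPM, so the libraries held RNA of the surrounding tissue as well. In such bulk tissue, fewer cells of a type and less RNA per cell cannot be told apart.

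Major histocompatibility complex (MHC) class I molecules show peptides from inside a cell to T cells. H2-K1 and H2-D1 encode classical class I heavy chains of the mouse, and B2m encodes the light chain that they share. Cd74 encodes the invariant chain that guards the groove of MHC class II in professional antigen-presenting cells. Type I interferons signal through their receptor, Janus kinases and transcription factors to a promoter element, the interferon-stimulated response element (ISRE), and so raise antiviral genes: Irf7, a transcription factor that feeds back on interferon production, Ifit1 and Ifit3, which act on viral RNA, Bst2 (tetherin), which holds budding virions at the cell surface, and Ifi27. In the healthy brain these genes are read at low levels, mainly in microglia, border macrophages and vessels, and they rise together when interferon is present.

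Library totals lay between 16422135 and 28403218 counts, the lowest in Dot1l(fl/fl) replicate 3. Levels below are CPM after TMM scaling, whose factors ran from 0.988 to 1.01. Differences were tested with edgeR's quasi-likelihood test in 1 fit of all 9 libraries, and p-values were adjusted over all genes by the method of Benjamini and Hochberg. Dot1l itself was read at 80.2 to 85.1 CPM in Dot1l(+/+), 60.6 to 84.2 CPM in Dot1l(fl/+) and 73.9 to 82.8 CPM in Dot1l(fl/fl), with overlapping groups. These counts cover the whole gene in all cells of the tissue and therefore do not check the loss of the floxed exon in dopamine neurons. Of 9 dopamine neuron markers, 8 lay lower in Dot1l(fl/fl) than in Dot1l(+/+) at an unadjusted p under 0.05, beside 3.93% of all genes in either direction, and 0 at an adjusted p of 0.05. Choroid plexus markers stood apart in 1 library, Dot1l(fl/+) replicate 3, where 8 markers summed to 594 CPM against 40.0 to 181 CPM in the other libraries. Their sums also differed by genotype, as the Dot1l(fl/fl) pools, at 40.0 to 46.9 CPM, all lay below the controls, at 67.5 to 157 CPM.

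No member differed between genotypes at an adjusted p of 0.05 in any of the 3 comparisons, where the same threshold called 0% of all genes in Dot1l(fl/+) against Dot1l(+/+), 0% in Dot1l(fl/fl) against Dot1l(+/+) and 0% in Dot1l(fl/fl) against Dot1l(fl/+). DESeq2 called 7, 3 and 14 genes in these comparisons, none of them a member. At an unadjusted p under 0.05, 2 of the 9 members passed in Dot1l(fl/+) against Dot1l(+/+), both higher, beside 8.39% of all genes. In Dot1l(fl/fl) against Dot1l(+/+), 0 of 9 passed, beside 3.93% of all genes. In Dot1l(fl/fl) against Dot1l(fl/+), 1 of 9 passed, lower, beside 6.48% of all genes. Both comparisons with Dot1l(+/+) share the same 3 control pools. The median log2 fold change of the members was 0.21 for Dot1l(fl/+) and -0.045 for Dot1l(fl/fl) against Dot1l(+/+), where the medians of all genes were -0.0034 and 0.0009. With Dot1l(fl/+) replicate 3 left out, the members' median in Dot1l(fl/+) was 0.0014 and 0 of 9 passed the unadjusted threshold. With Dot1l(fl/+) replicate 1 left out, it was 0.32 and 4 of 9 passed. The members' median for Dot1l(fl/fl) turned to 0.082, with 8 of 9 above 0 and 1 passing, once its replicate 1 was left out, and to -0.13, with 2 of 9 above 0, once its replicate 3 was. With the replicate number as a block, 2, 0 and 1 members passed the unadjusted threshold in the 3 comparisons and none after adjustment.

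**Figure D1:**
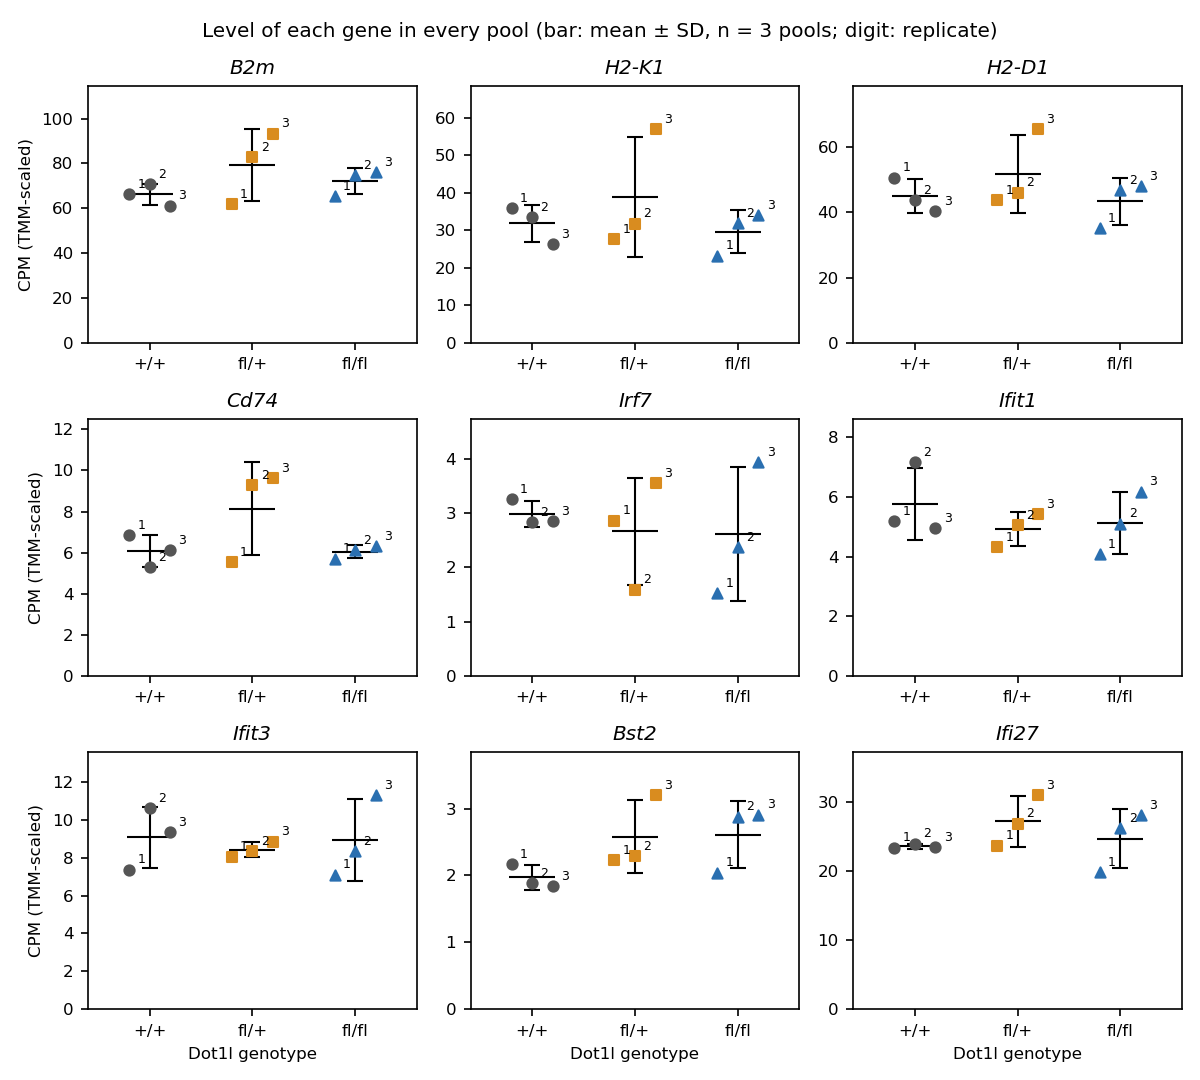
Level of each of the 9 genes in CPM (TMM-scaled, linear axes from 0) in every pool, by Dot1l genotype. Points are pools with their replicate number, long bars the means and error bars the SD of 3 pools; Bst2 in Dot1l(fl/+) against Dot1l(+/+) is the one case where 2 genotypes do not overlap in a comparison with the controls, and Dot1l(fl/+) replicate 3 holds the highest value of B2m, H2-K1, H2-D1, Cd74, Bst2 and Ifi27.

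Per kilobase of exon, the light chain B2m was the most abundant member, at 76.9 ± 5.62 CPM per kb in Dot1l(+/+) (SD, n = 3 pools). H2-D1 followed at 17.4 ± 2.03, Ifi27 at 16.1 ± 0.237 and H2-K1 at 10.8 ± 1.69 CPM per kb, and H2-D1 and Ifi27 overlapped within their spread. Ifit3 stood at 5.21 ± 0.921, Cd74 at 3.62 ± 0.469, Bst2 at 2.18 ± 0.2, Ifit1 at 2.17 ± 0.456 and Irf7 at 0.79 ± 0.064 CPM per kb. Bst2 and Ifit1 were not apart within their spread. The class I light chain was thus read far above its 2 heavy chains, and the interferon-induced factor Irf7 was the lowest of the set on this scale.

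B2m (ENSMUSG00000060802, chr2:122147686-122153083, plus strand, GRCm38) overlaps Patl2 on the other strand. It was read at 66.4, 70.9 and 61.2 CPM in the Dot1l(+/+) pools, at 61.8, 83.0 and 93.3 CPM in the Dot1l(fl/+) pools, and at 65.3, 74.9 and 76.2 CPM in the Dot1l(fl/fl) pools. In each of the floxed groups 2 pools lay above every control pool and 1 lay among them. Dot1l(fl/+) was higher than Dot1l(+/+) by 0.26 ± 0.12 on the log2 scale (edgeR estimate ± SE), a 1.2-fold difference with an unadjusted p-value of 0.0421 and an adjusted p of 0.574. Leaving out replicate 3 of Dot1l(fl/+) gave 0.13, and leaving out its replicate 1 gave 0.41. For Dot1l(fl/fl) against Dot1l(+/+) the log2 difference was 0.12 ± 0.12 with an adjusted edgeR p of 0.999 and a 95% interval from 0.913-fold to 1.3-fold.

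H2-K1 (ENSMUSG00000061232, chr17:33996017-34000347, minus strand) was read at 35.8, 33.4 and 26.3 CPM in Dot1l(+/+), at 27.6, 31.7 and 57.0 CPM in Dot1l(fl/+), and at 23.2, 31.8 and 33.9 CPM in Dot1l(fl/fl). Dot1l(fl/+) replicate 3 was the highest and Dot1l(fl/fl) replicate 1 the lowest of the 9 pools, and the other 7 lay between 26.3 and 35.8 CPM whatever their genotype. The log2 difference from Dot1l(+/+) was 0.29 ± 0.22 for Dot1l(fl/+) (edgeR adjusted p = 0.756) and -0.11 ± 0.23 for Dot1l(fl/fl) (edgeR adjusted p = 0.999). The former turned to -0.10 once replicate 3 of Dot1l(fl/+) was left out, and the latter to 0.047 once replicate 1 of Dot1l(fl/fl) was.

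H2-D1 (ENSMUSG00000073411, chr17:35262730-35267499, plus strand), the second classical heavy chain, had 50.7, 43.8 and 40.4 CPM in Dot1l(+/+), 43.7, 46.1 and 65.7 CPM in Dot1l(fl/+), and 35.1, 46.9 and 48.1 CPM in Dot1l(fl/fl). Its highest and lowest pools were those of H2-K1, and the 3 genotypes overlapped. Compared with the controls, the log2 difference was 0.21 ± 0.15 for Dot1l(fl/+) and -0.054 ± 0.15 for Dot1l(fl/fl), with adjusted edgeR p-values of 0.732 and 0.999. The first was 0.0014 with replicate 3 of Dot1l(fl/+) left out, and the second was 0.082 with replicate 1 of Dot1l(fl/fl) left out. Of the 50-base windows in the transcripts of H2-K1, 9.633% also occur in another gene, H2-D1 and H2-Q7 among them, and of those of H2-D1, 12.775% do, so the split of reads between class I genes is uncertain to that degree.

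Cd74 (ENSMUSG00000024610, chr18:60803848-60812652, plus strand), the only class II member, was read at 6.85, 5.28 and 6.12 CPM in Dot1l(+/+), at 5.52, 9.29 and 9.61 CPM in Dot1l(fl/+), and at 5.71, 6.12 and 6.3 CPM in Dot1l(fl/fl). Replicates 2 and 3 of Dot1l(fl/+) lay above all other pools, and replicate 1 lay among them. The log2 difference of Dot1l(fl/+) from Dot1l(+/+) was 0.42 ± 0.18, a 1.34-fold difference with an unadjusted p-value of 0.0354 and an adjusted edgeR p of 0.568. Without Dot1l(fl/+) replicate 1 it was 0.64 (edgeR adjusted p = 0.153), and without replicate 3 of that genotype it was 0.29. Dot1l(fl/fl) lay at -0.0097 ± 0.19 from Dot1l(+/+) and at -0.43 ± 0.18 from Dot1l(fl/+), the latter with an unadjusted p-value of 0.0331 and an adjusted edgeR p of 0.734. That difference was -0.65 with replicate 1 of Dot1l(fl/+) left out and -0.30 with its replicate 3 left out.

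Irf7 (ENSMUSG00000025498, chr7:141262706-141266481, minus strand) overlaps Phrf1 on the other strand. It was read at 3.26, 2.83 and 2.85 CPM in Dot1l(+/+), at 2.86, 1.59 and 3.55 CPM in Dot1l(fl/+), and at 1.52, 2.37 and 3.94 CPM in Dot1l(fl/fl). These values rest on 38 to 93 counts per library. The control pools lay close together, while both floxed groups held pools above and below all of them. The log2 difference from controls was -0.17 ± 0.31 for Dot1l(fl/+) and -0.23 ± 0.32 for Dot1l(fl/fl), with adjusted edgeR p-values of 0.917 and 0.999. The first turned to 0.11 when replicate 2 of Dot1l(fl/+) was left out, the second to 0.055 when replicate 1 of Dot1l(fl/fl) was. Between pools of one genotype the SD was 0.51 on the log2 scale, larger than in 94.9% of all genes tested, whose median was 0.13.

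Ifit1 (ENSMUSG00000034459, chr19:34640871-34650009, plus strand) was read at 5.2, 7.17 and 4.96 CPM in Dot1l(+/+), at 4.31, 5.05 and 5.41 CPM in Dot1l(fl/+), and at 4.08, 5.1 and 6.18 CPM in Dot1l(fl/fl). The highest pool was a control. Its log2 differences from the controls were both below 0, at -0.23 ± 0.18 for Dot1l(fl/+) and -0.19 ± 0.18 for Dot1l(fl/fl), with adjusted edgeR p-values of 0.756 and 0.999. Without Dot1l(+/+) replicate 2 these were -0.036 and 0.0019. The 95% intervals reached up to 1.11-fold and 1.15-fold, the lowest upper bounds of any member in each comparison with controls.

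Ifit3 (ENSMUSG00000074896, chr19:34583531-34588731, plus strand) had 7.37, 10.6 and 9.35 CPM in Dot1l(+/+), 8.06, 8.33 and 8.85 CPM in Dot1l(fl/+), and 7.11, 8.34 and 11.3 CPM in Dot1l(fl/fl). The Dot1l(fl/+) pools lay within the range of the controls, and the Dot1l(fl/fl) pools ran past it at both ends. Compared with the controls, the log2 difference was -0.11 ± 0.16 for Dot1l(fl/+) and -0.045 ± 0.17 for Dot1l(fl/fl), with adjusted edgeR p-values of 0.888 and 0.999, and both turned above 0 without Dot1l(+/+) replicate 2, at 0.01 and 0.078. Its paralogue Ifit3b holds 51.238% of its 50-base windows, so its counts are uncertain to a larger degree than those of any other member.

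Bst2 (ENSMUSG00000046718, chr8:71534255-71537456, minus strand) was the only member with groups that did not overlap. It was read at 2.17, 1.89 and 1.84 CPM in Dot1l(+/+), at 2.23, 2.29 and 3.2 CPM in Dot1l(fl/+), and at 2.04, 2.88 and 2.91 CPM in Dot1l(fl/fl). All 3 Dot1l(fl/+) pools and 2 of 3 Dot1l(fl/fl) pools lay above every control pool. Groups did not overlap in 1 of 9 members in Dot1l(fl/+) against Dot1l(+/+), beside 13.3% of all genes, in 0 of 9 in Dot1l(fl/fl) against Dot1l(+/+), beside 10.3%, and in 0 of 9 in Dot1l(fl/fl) against Dot1l(fl/+), beside 11.1%. The log2 difference was 0.39 ± 0.21 for Dot1l(fl/+) and 0.40 ± 0.21 for Dot1l(fl/fl), with unadjusted edgeR p-values of 0.0833 and 0.0811 and adjusted p-values of 0.632 and 0.999. The first was 0.21 once replicate 3 of Dot1l(fl/+) was left out. The second was 0.56 once replicate 1 of Dot1l(fl/fl) was left out, with an unadjusted edgeR p-value of 0.0241, and 0.31 once its replicate 2 was. Counts per library were 44 to 84.

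Ifi27 (ENSMUSG00000064215, chr12:103434211-103440239, plus strand) was the most even member among controls, at 23.4, 24 and 23.5 CPM. It was read at 23.7, 26.9 and 31.0 CPM in Dot1l(fl/+) and at 19.9, 26.2 and 28.1 CPM in Dot1l(fl/fl). In each floxed group 2 pools lay above the controls, and 1 Dot1l(fl/fl) pool lay below them. The log2 difference from controls was 0.20 ± 0.12 for Dot1l(fl/+) and 0.061 ± 0.12 for Dot1l(fl/fl), with adjusted edgeR p-values of 0.675 and 0.999. The first was 0.098 without Dot1l(fl/+) replicate 3, and the second was -0.033 without Dot1l(fl/fl) replicate 3 and 0.20 without its replicate 1.

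Between the 2 floxed genotypes, the differences of the 8 members other than Cd74 did not pass even the unadjusted threshold. The log2 difference of Dot1l(fl/fl) from Dot1l(fl/+) was -0.39 ± 0.22 in H2-K1, -0.26 ± 0.15 in H2-D1 and -0.14 ± 0.12 in B2m, with adjusted edgeR p-values of 0.79, 0.79 and 0.855. Without Dot1l(fl/+) replicate 3 these differences were -0.0069, -0.055 and -0.0071.

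The intervals bound how large a difference between genotypes could be in RNA of the whole tissue. They do not bound an effect within dopamine neurons, the part of that tissue in which Cre recombines Dot1l by design. In Dot1l(fl/fl) against Dot1l(+/+), the upper 95% bound of the fold change was 1.3 for B2m, 1.3 for H2-K1, 1.21 for H2-D1, 1.31 for Cd74, 1.37 for Irf7, 1.24 for Ifit3, 1.25 for Ifi27 and 1.82 for Bst2. In Dot1l(fl/+) it was highest for Bst2 at 1.79, Cd74 at 1.76 and H2-K1 at 1.7. In the fit of all 9 libraries, no interval of a member reached a 2-fold rise in either comparison. These intervals are for 1 gene at a time and rest on the spread between 9 pools.

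**Figure D2:**
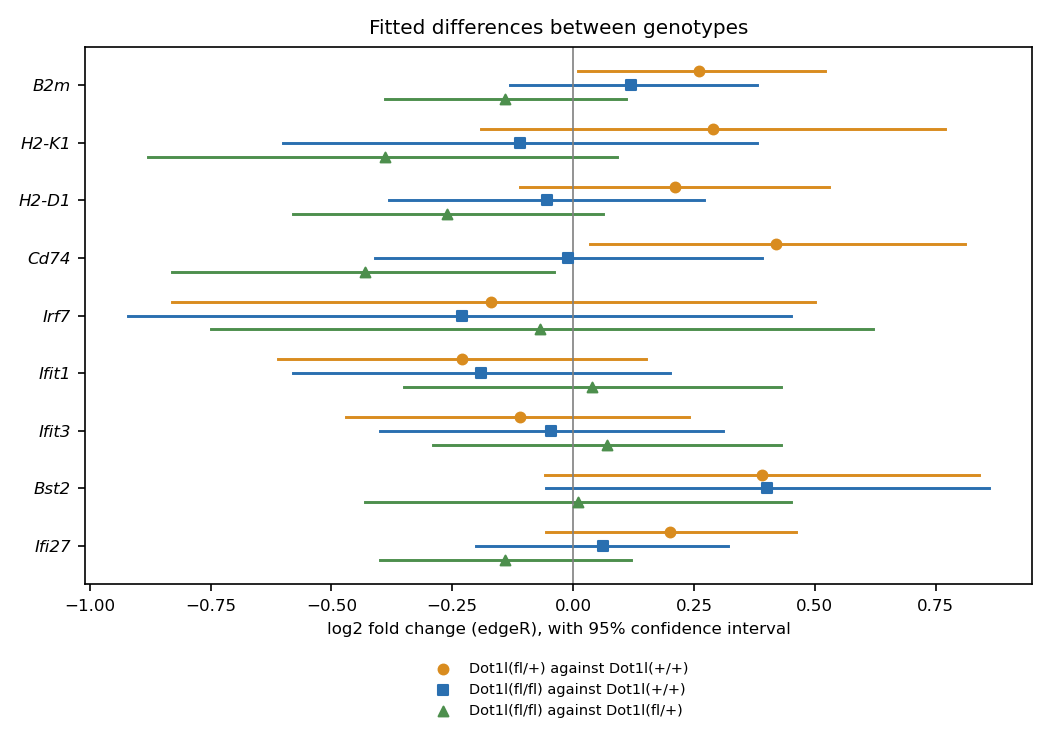
Log2 fold change of each gene in the 3 comparisons between Dot1l genotypes, as fitted by edgeR over 9 libraries; points are estimates and lines 95% confidence intervals. The intervals of B2m and Cd74 in Dot1l(fl/+) against Dot1l(+/+) and of Cd74 in Dot1l(fl/fl) against Dot1l(fl/+) leave out 0, and none of these passed after adjustment over all genes.

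To ask whether the rest of the pathway moved, lists of its genes were read step by step, from ligand to target. The ligand list held the interferons with Il6, Tnf and Il1b, and 0 of its 13 genes had enough counts to be tested. Ifnb1, Ifna1, Ifna2, Ifna4, Ifna5, Ifne, Ifnk, Ifnl2 and Ifnl3 had 0 counts in all 9 libraries, which allows up to 3 counts or 0.106 to 0.183 CPM per library (counting error only). Ifng, the type II interferon, had 1 count in each of 2 libraries. The cytokines Il6, Tnf and Il1b had at most 6 counts in a library. Apart from these 2 counts of Ifng, no interferon of the list was detectable at this depth in any genotype.

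Receptors and signalling parts were all read: 19 of 19 were tested. Ifnar1, a chain of the type I receptor, stood at 53.2 ± 3.22 CPM (Dot1l(+/+)), 53.0 ± 1.17 CPM (Dot1l(fl/+)) and 52.6 ± 1.98 CPM (Dot1l(fl/fl)), as mean ± SD of 3 pools. One gene of this list passed the unadjusted threshold, Ifngr2, a chain of the type II receptor, with 48.9 ± 2.04 CPM in Dot1l(fl/fl) and 43.7 ± 3.03 CPM in Dot1l(+/+) and a log2 difference of 0.16 ± 0.067 (edgeR adjusted p = 0.999), beside 3.93% of all genes. The list's median log2 difference was 0.022 for Dot1l(fl/+) and 0.039 for Dot1l(fl/fl), and it lay between -0.0077 and 0.065 and between 0.011 and 0.061 as each library was left out.

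Among 24 nucleic acid sensors and their adaptors, which start interferon production, 22 were tested. Trex1, the nuclease that clears cytosolic DNA, had 0 counts in all libraries. It overlaps Atrip on the same strand, so its level cannot be read from these counts. Ticam1, the adaptor of Tlr3, and Tlr9, a receptor for unmethylated DNA, passed the unadjusted threshold in Dot1l(fl/fl), at log2 differences of 0.36 ± 0.16 and 0.55 ± 0.25 and with adjusted edgeR p-values of 0.999. All 3 Dot1l(fl/fl) pools lay above every control in both genes, Ticam1 at 4.32, 5.45 and 5.94 CPM against 4.3, 4.25 and 3.68 CPM. These 2 of 22 stand beside 3.93% of all genes under that threshold and 10.3% of all genes without overlap. Tlr9 had 1.72, 1.38 and 1.82 CPM against 1.13, 1.03 and 1.16 CPM, from 24 to 43 counts. In Dot1l(fl/+), Rnaseh2c, a subunit of the enzyme that removes RNA from DNA, passed, at 0.27 ± 0.12 (edgeR adjusted p = 0.595), as 1 of 22 beside 8.39% of all genes. The median of the list was 0.0059 for Dot1l(fl/+) and 0.053 for Dot1l(fl/fl), and it lay between -0.03 and 0.087 and between -0.0032 and 0.11 as each library was left out.

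Of 63 interferon-stimulated genes, 55 were tested, 5 of the members among them. At an unadjusted p under 0.05, 0 were higher and 1 was lower in Dot1l(fl/+) than in Dot1l(+/+), and 0 passed in either direction in Dot1l(fl/fl), beside the 8.39% and 3.93% of all genes. The count for Dot1l(fl/fl) became 4 of 57 when its replicate 1 was left out, with 42 above 0 and a median of 0.097, and 4 of 57 when its replicate 3 was, with 20 above 0 and a median of -0.072. For Dot1l(fl/+) it reached 4 when its replicate 2 was left out, and the list's median was then 0.018. The one gene was Ifitm1, which blocks viral entry, with 1.1 ± 0.211 CPM against 1.75 ± 0.337 CPM in controls, a log2 difference of -0.66 ± 0.26 (edgeR adjusted p = 0.541). List medians were -0.05 and -0.0095. The direct interferon targets Isg15, a ubiquitin-like modifier, and Rsad2 (viperin) had log2 differences of 0.42 ± 0.25 and -0.19 ± 0.21 in Dot1l(fl/+) and of -0.07 ± 0.26 and -0.066 ± 0.21 in Dot1l(fl/fl). Without Dot1l(fl/+) replicate 3 the first of these, Isg15 in Dot1l(fl/+), was 0.18, and Rsad2 there was -0.016 without Dot1l(+/+) replicate 2. Among 15 GTPases induced by interferon gamma, which act on intracellular microbes, 14 were tested, and Gbp9 passed the unadjusted threshold in Dot1l(fl/+), at -0.54 ± 0.17 (edgeR adjusted p = 0.541). This list's medians were -0.091 for Dot1l(fl/+) and -0.10 for Dot1l(fl/fl), and neither was stable. Leaving out replicate 3 of Dot1l(fl/+) gave -0.37 for that genotype, and leaving out replicate 1 of Dot1l(+/+) gave 0.0073. For Dot1l(fl/fl), the median was 0.15 with 13 of 15 genes above 0 when its replicate 1 was left out, -0.30 when its replicate 2 was, and 0.046 when replicate 1 of Dot1l(+/+) was.

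Most antigen presentation genes had higher values in Dot1l(fl/+) than in controls, and for class I this rested on 1 pool. All 27 genes of MHC class I and its peptide loading were tested, and 21 of them lay above Dot1l(+/+) in Dot1l(fl/+), with a median of 0.16, whereas 48.9% of all genes did. Without Dot1l(fl/+) replicate 3, 13 of 27 lay above and the median was -0.005, while leaving out any other library kept at least 21 above. Past the unadjusted threshold in the full set were 3 genes, B2m, Psmb10, a subunit of the immunoproteasome (0.26 ± 0.1, edgeR adjusted p = 0.541), and Calr, the chaperone calreticulin (0.22 ± 0.1, edgeR adjusted p = 0.586), beside 8.39% of all genes. None of the 27 passed once replicate 3 of Dot1l(fl/+) or replicate 3 of Dot1l(+/+) was left out. For Dot1l(fl/fl), 14 lay above and 13 below, with a median of 0.0038, and 0 passed. Tap1, the peptide pump, stood at 4.37 ± 0.0816, 5.06 ± 1.56 and 4 ± 0.841 CPM in Dot1l(+/+), Dot1l(fl/+) and Dot1l(fl/fl). Of 13 class II genes 10 were tested, and Ciita, the class II master regulator, was not among them, with 2 to 8 counts per library. In Dot1l(fl/+), 8 of the 10 lay above Dot1l(+/+) with a median of 0.20. Of the 10, 3 passed the unadjusted threshold, Cd74, Lgmn (0.19 ± 0.056) and Ctss (0.20 ± 0.083), beside 8.39% of all genes. Lgmn and Ctss encode proteases that process antigens and the invariant chain, and their adjusted edgeR p-values were 0.541 and 0.557. In the same comparison 14 of 18 microglia markers, given further on, lay above Dot1l(+/+) with a median of 0.14, and their part in the class II values was not tested. The class II median was also 0.20 without Dot1l(fl/+) replicate 3, with 2 genes passing. It was 0.12 without Dot1l(fl/+) replicate 2, with 6 of 10 above 0 and 1 passing, and 0.18 without Dot1l(+/+) replicate 3, with 1 passing. As for Dot1l(fl/fl), 4 lay above and 6 below, with a median of -0.076, and 0 passed. That median was 0.045 when replicate 1 of Dot1l(+/+) was left out and -0.21, with 2 genes passing, when its replicate 2 was.

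**Figure D3:**
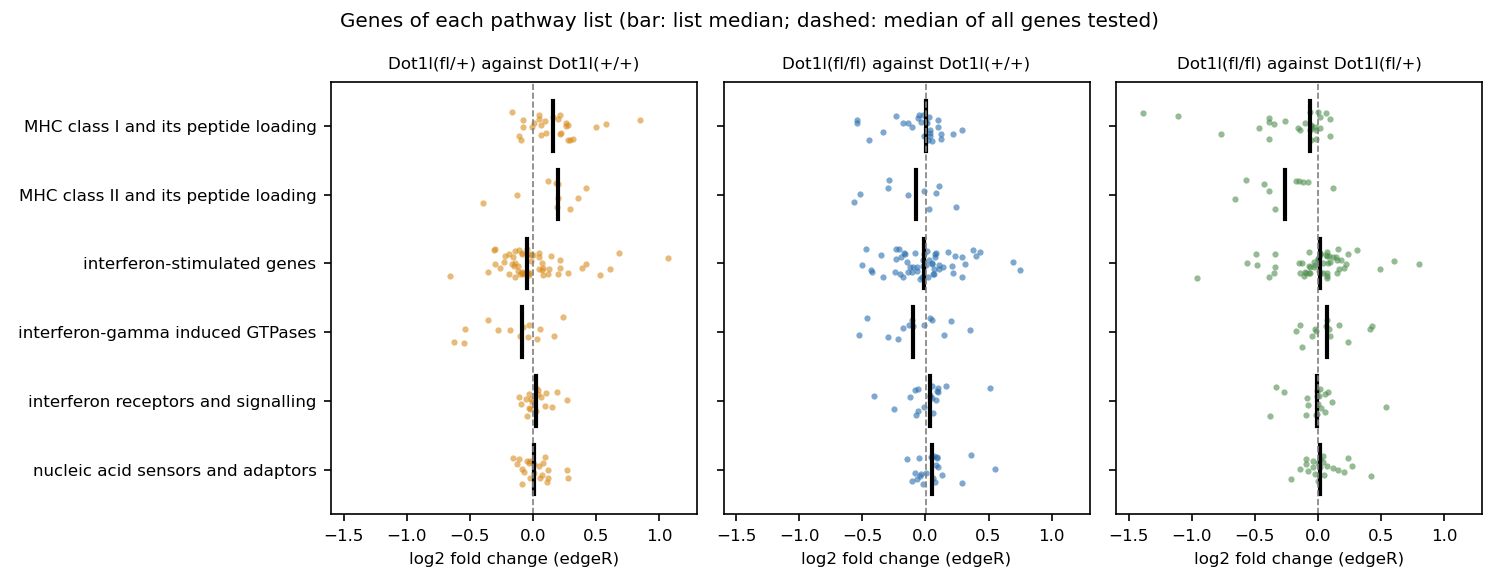
Log2 fold change (edgeR) of every tested gene in 6 pathway lists, for the 3 comparisons between Dot1l genotypes. Points are genes, black bars list medians and dashed lines the median of all genes tested; the class I and class II lists sit to the right in Dot1l(fl/+) against Dot1l(+/+), with medians of 0.16 and 0.20, and the interferon-stimulated genes centre near 0 in all 3 comparisons.

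Class I genes of the H2-Q region had a wide spread between pools of one genotype. H2-Q4, H2-Q6 and H2-Q7 were singled out after their values were seen. H2-Q6 was read at 4.44, 3.86 and 1.61 CPM in Dot1l(+/+), at 3.48, 2.22 and 12 CPM in Dot1l(fl/+), and at 0.719, 3.48 and 2.61 CPM in Dot1l(fl/fl). H2-Q7 had its highest value, 9.42 CPM, in the same Dot1l(fl/+) replicate 3 and its lowest, 0.759 CPM, in the same Dot1l(fl/fl) replicate 1, and H2-Q4 ran from 2.76 to 12.6 CPM between these 2 pools. The highest pool was 16.8 times the lowest for H2-Q6, 12.4 times for H2-Q7 and 2.46 times for H2-K1. Their SD between pools of a genotype, 1.07, 1.16 and 0.59 for H2-Q6, H2-Q7 and H2-Q4 on the log2 scale, exceeded that of 99.7%, 99.8% and 96.7% of all genes. Among other nonclassical genes, H2-T24 had an SD of 0.55, close to that of H2-Q4, while H2-T22, H2-T23 and H2-M3 had 0.14, 0.22 and 0.25, beside the median of 0.13 over all genes. H2-Q6 (-1.39 ± 0.6) and H2-Q4 (-0.77 ± 0.36) passed the unadjusted threshold in Dot1l(fl/fl) against Dot1l(fl/+), as 2 of the 27 class I genes beside 6.48% of all genes, with adjusted edgeR p-values of 0.745 and 0.768, and were -0.34 and -0.15 once replicate 3 of Dot1l(fl/+) was left out.

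The members varied together between pools of the same genotype. After the mean of each genotype was removed, Pearson's r of log2 CPM over the 9 libraries was above 0 in 35 of the 36 pairs of members, with a median of 0.654, while 49.9% of all pairs of genes tested lay above 0, with a median of -0.0012. Leaving out Dot1l(fl/+) replicate 3 and Dot1l(fl/fl) replicate 1, chosen after the values were seen, left 25 of 36 pairs above 0 with a median of 0.224. Removing the mean of each replicate number as well left 29 of 36 with a median of 0.59. The full set was tested by an exact two-sided permutation of the libraries within genotypes, whose 216 orders allow no p below 0.00463, and adjusted over the 36 pairs. In 4 pairs it reached this smallest p, with an adjusted p of 0.0417 each: H2-K1 with H2-D1 (r = 0.969, rho = 0.967), H2-D1 with Bst2 (r = 0.986, rho = 0.933), H2-K1 with Bst2 (r = 0.928, rho = 0.95) and B2m with Ifit1 (r = 0.726, rho = 0.867). For Spearman's rho the exact permutation p was also 0.00463 in these 4 pairs (adjusted 0.0417). The share of all gene pairs that reach this p is not given here, so the count of 4 has no background beside it. The 2 libraries farthest from the median of the first gene were then dropped, with the genotype means still those of all 9 libraries. On the rest, r was 0.956, 0.981, 0.907 and 0.742, values that the dropped libraries still affect through the means. With all 9 libraries and the replicate means removed, r was 0.961, 0.985, 0.904 and 0.483 in the same order, so B2m with Ifit1 moved most. The permutation takes pools of a genotype as exchangeable, which matched litters may not allow. The remaining 32 pairs had adjusted exact permutation p-values of 0.0556 or more. Cd74 with Ifit3 was the one pair with r below 0 (r = -0.00387, exact permutation p = 0.977, adjusted 0.977), and Irf7 with B2m had an r of 0.251 (exact permutation p = 0.694, adjusted 0.735). H2-K1 and H2-D1 share at most 5.178% and 5.866% of their 50-base windows with each other.

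**Figure D4:**
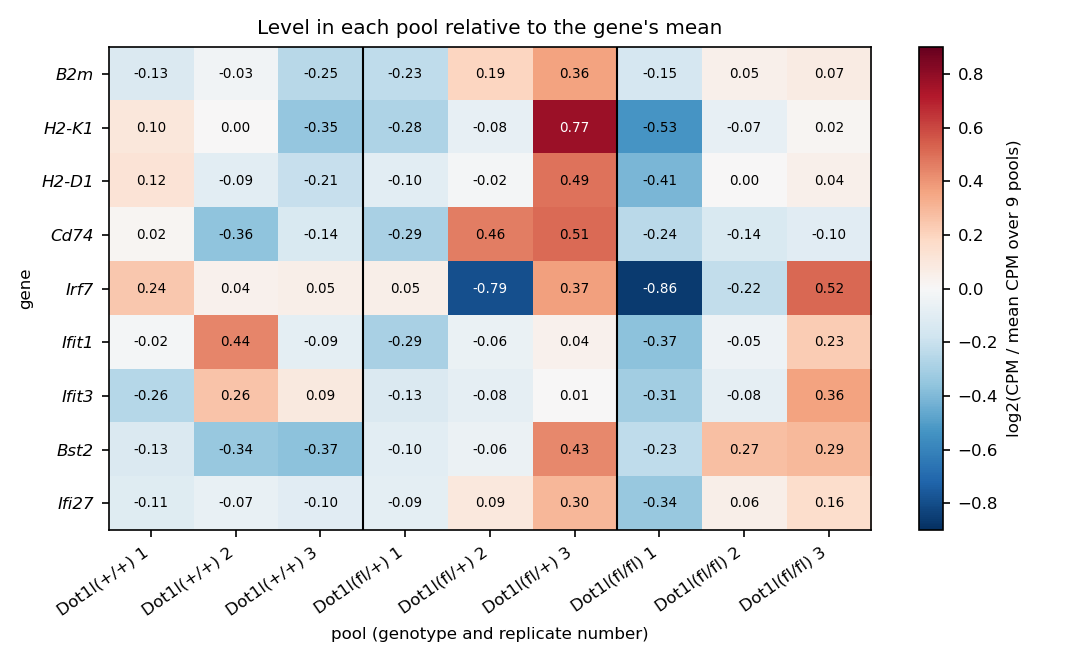
Level of each gene in every pool as log2 of its CPM over its mean CPM in the 9 pools, printed in each cell and shown by colour (red above, blue below the mean). Dot1l(fl/+) replicate 3 lies above the mean in all 9 genes and Dot1l(fl/fl) replicate 1 below it in all 9.

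Of the 9 members, 7 had a start region in the RefSeq promoter table (GRCm38.p6), which spans 250 bases before to 50 bases after the start. Cd74 and Ifi27 were not among them. The ISRE core GAAANNGAAA, or TTTCNNTTTC on the other strand, occurred in 4 of the 7, in B2m, Ifit1, Ifit3 and Bst2, and in 3.44% of all 32851 promoters of the same length. Ifit1 and Ifit3 each held 2 copies, TTTCACTTTC and TTTCAGTTTC in both genes, which began 104 and 85 bases upstream of the start in Ifit1 and 156 and 122 bases upstream in Ifit3. B2m held 1 copy 139 bases upstream. In Bst2 2 overlapping copies began 130 and 124 bases upstream. No exact match to this core was in the windows of H2-K1, H2-D1 and Irf7. Looser forms of the element were not searched for, so its absence there is not shown. The 6 windows of the genes in the 4 pairs and of Ifit3 are printed 5′ to 3′ on the strand of the gene, with each match to the ISRE core in capitals.
B2m (chr2:122147437-122147736, plus strand): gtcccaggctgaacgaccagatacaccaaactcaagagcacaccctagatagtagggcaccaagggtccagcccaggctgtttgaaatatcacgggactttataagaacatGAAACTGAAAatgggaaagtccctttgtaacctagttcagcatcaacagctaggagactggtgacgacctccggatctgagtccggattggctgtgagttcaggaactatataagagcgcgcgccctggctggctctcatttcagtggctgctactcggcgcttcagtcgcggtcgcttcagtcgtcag
H2-K1 (chr17:34000298-34000597, minus strand): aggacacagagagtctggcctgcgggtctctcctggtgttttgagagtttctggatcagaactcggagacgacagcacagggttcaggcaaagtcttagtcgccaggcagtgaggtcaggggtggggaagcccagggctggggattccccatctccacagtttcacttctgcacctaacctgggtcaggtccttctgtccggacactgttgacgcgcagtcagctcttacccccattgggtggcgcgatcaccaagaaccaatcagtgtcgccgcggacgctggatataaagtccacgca
H2-D1 (chr17:35262844-35263143, plus strand): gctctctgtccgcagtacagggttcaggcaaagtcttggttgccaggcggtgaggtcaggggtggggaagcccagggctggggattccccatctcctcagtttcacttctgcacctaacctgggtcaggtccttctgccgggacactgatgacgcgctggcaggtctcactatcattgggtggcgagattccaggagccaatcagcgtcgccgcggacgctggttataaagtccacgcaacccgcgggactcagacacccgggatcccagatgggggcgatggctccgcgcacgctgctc
Ifit1 (chr19:34640639-34640938, plus strand): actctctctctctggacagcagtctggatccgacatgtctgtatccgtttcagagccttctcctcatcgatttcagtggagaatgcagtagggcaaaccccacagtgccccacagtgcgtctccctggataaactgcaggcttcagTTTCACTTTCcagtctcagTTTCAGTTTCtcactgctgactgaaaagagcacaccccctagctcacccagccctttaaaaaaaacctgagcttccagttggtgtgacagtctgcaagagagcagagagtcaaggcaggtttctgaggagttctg
Ifit3 (chr19:34583279-34583578, plus strand): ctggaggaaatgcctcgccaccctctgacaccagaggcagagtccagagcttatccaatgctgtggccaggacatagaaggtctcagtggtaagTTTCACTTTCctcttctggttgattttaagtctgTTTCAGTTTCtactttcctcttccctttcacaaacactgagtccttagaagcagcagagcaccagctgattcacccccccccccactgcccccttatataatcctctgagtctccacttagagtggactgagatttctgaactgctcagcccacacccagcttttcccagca
Bst2 (chr8:71537423-71537722, minus strand): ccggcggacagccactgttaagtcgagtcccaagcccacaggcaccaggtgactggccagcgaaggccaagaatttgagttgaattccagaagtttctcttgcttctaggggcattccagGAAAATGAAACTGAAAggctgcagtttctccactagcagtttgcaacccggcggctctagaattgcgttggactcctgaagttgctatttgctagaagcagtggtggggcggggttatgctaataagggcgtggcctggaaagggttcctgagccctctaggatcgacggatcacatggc
Matches are descriptions of letters, and no binding was measured. The pairs that moved together hold an exact match to the core in both genes (B2m with Ifit1), in 1 of them (H2-D1 and H2-K1 with Bst2) or in neither (H2-K1 with H2-D1).

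Genes that followed the pattern of B2m and Irf7 most closely were taken by Pearson's r of log2 CPM over the 9 libraries, among 15436 genes with a mean of at least 1 CPM. They were Fabp5 (r = 0.948), Ost4 (0.943), Cdadc1 (0.943), Trappc3 (0.937) and Mrpl14 (0.929) for B2m. For Irf7 they were Alms1 (r = 0.984), the interferon-induced GTPase Mx2 (0.956), Gli2 (0.953), Col4a4 (0.949) and Slc5a6 (0.933). These are descriptions over 9 libraries, chosen as the highest of many, and each r shares its libraries with the others.

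Markers of cells that read these genes were summed in each pool. The 18 microglia markers came to 483 to 510 CPM in Dot1l(+/+), 481 to 577 CPM in Dot1l(fl/+) and 528 to 566 CPM in Dot1l(fl/fl), so that the Dot1l(fl/fl) pools lay above the controls. At an unadjusted p under 0.05, 3 of the 18 were higher in Dot1l(fl/+), beside 8.39% of all genes in either direction, Tyrobp (0.55 ± 0.17) and Selplg (0.28 ± 0.11) among them, and 4 were higher in Dot1l(fl/fl), beside 3.93%, P2ry13 (0.36 ± 0.14), Trem2 (0.31 ± 0.12), Aif1 (0.42 ± 0.17) and Csf1r (0.15 ± 0.061), with a list median of 0.14 and 0.15. Of the 18, 14 lay above Dot1l(+/+) in Dot1l(fl/+) and 4 below, namely Fcrls (-0.18 ± 0.15), Sall1 (-0.13 ± 0.076), P2ry12 (-0.06 ± 0.098) and Cx3cr1 (-0.019 ± 0.098), and 15 lay above in Dot1l(fl/fl) and 3 below. Of the list genes named here with an unadjusted p under 0.05 against Dot1l(+/+), members aside, Gbp9, Lgmn and Tyrobp stayed under it as each library was left out in turn, and the others did not. Tyrobp, an adaptor of microglial receptors, had 8.12 and 8.31 CPM in the Dot1l(fl/+) replicates 2 and 3 that were high in Cd74 and B2m, against 4.38 to 6.64 CPM in the other pools. Border macrophage markers summed to 37.1 to 42.3, 35 to 37.3 and 29.4 to 42.9 CPM, and endothelial markers to 472 to 513, 487 to 507 and 486 to 496 CPM, in the order Dot1l(+/+), Dot1l(fl/+), Dot1l(fl/fl). Neither list had a marker past the unadjusted threshold against Dot1l(+/+).

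T cell and neutrophil markers had few counts. Of 9 T cell markers 1 could be tested, Lck, and the list summed to 1.47 to 2.9 CPM over all pools, highest in Dot1l(fl/+) replicate 3. That sum was mostly Lck and Cd4, at 43 and 16 counts there. The Cd3 genes, which define T cells, had too few counts to compare pools. This pool had 1 count of Cd3d, 3 of Cd3e and 1 of Cd3g, against up to 2, 4 and 3 in other pools. Neutrophil markers summed to 0.188 to 0.662 CPM, with 0 of 7 tested and at most 6 counts of a marker in a library. Of 6 B cell markers 2 were tested, Pax5, a transcription factor, at 34 to 141 counts per library, and Jchain, the joining chain of antibodies, at 14 to 45. Jchain was read at 1.47 ± 0.251 CPM in Dot1l(fl/+) and 0.972 ± 0.141 CPM in Dot1l(+/+) (log2 difference 0.60 ± 0.29, edgeR adjusted p = 0.611), and Pax5 at 3.28 ± 1.74 and 5.06 ± 0.332 CPM (-0.62 ± 0.29, edgeR adjusted p = 0.604), both with no overlap of these groups, as in 13.3% of all genes. The lowest Pax5 pool was Dot1l(fl/+) replicate 3, at 1.3 CPM, and without it the difference was -0.24. Of 6 dendritic cell markers 4 were tested, and the list summed to 34.9 to 42.8 CPM over all pools, mostly Flt3 and Zbtb46, with 0 past the unadjusted threshold. Choroid plexus markers summed to 157, 67.5 and 145 CPM in Dot1l(+/+), to 115, 181 and 594 CPM in Dot1l(fl/+), and to 46.9, 40.0 and 43.8 CPM in Dot1l(fl/fl). The class I members, Cd74 and Bst2 were highest in the pool with 594 CPM, while Dot1l(fl/fl) replicate 1, the lowest in H2-K1 and H2-D1, did not stand apart from the other Dot1l(fl/fl) pools in this list. That pool had the lowest sum of border macrophage markers, 29.4 CPM against 35 to 42.9 CPM in the other 8 pools, while its microglia sum, 529 CPM, lay within the range of the others. The part of microglia, border macrophage, choroid plexus and T cell RNA in these values was not tested.

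**Figure D5:**
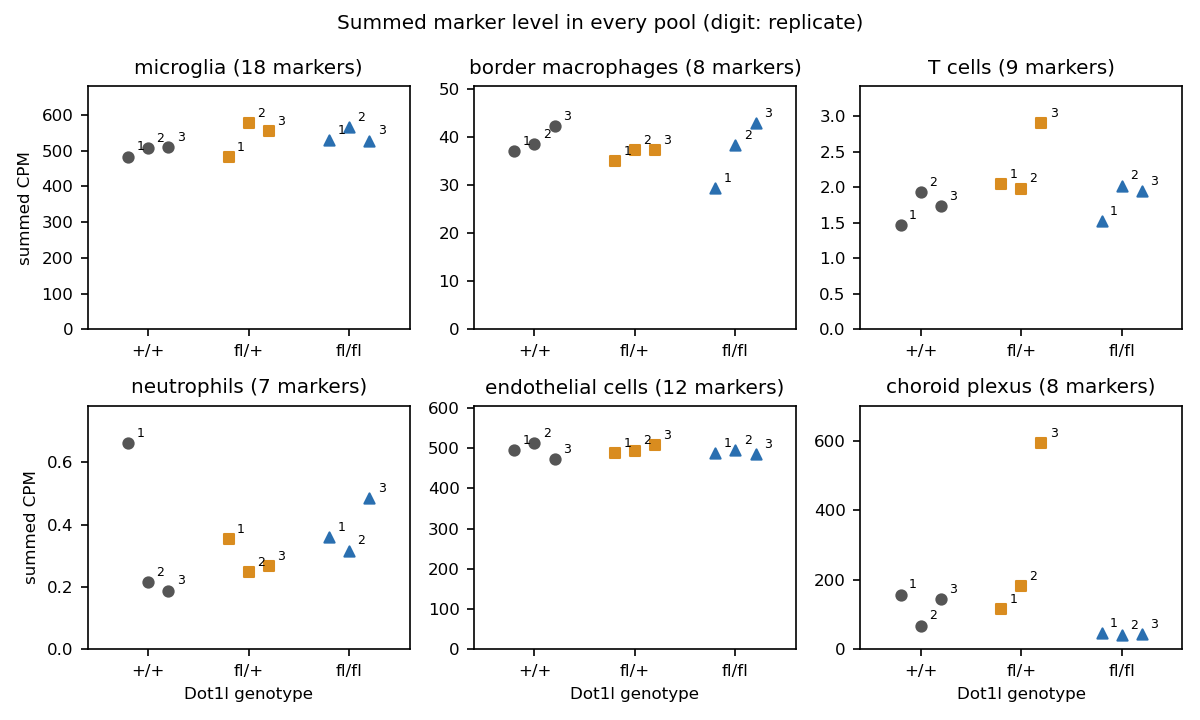
Summed CPM of the markers of 6 cell types in every pool, by Dot1l genotype, on linear axes from 0; points are pools with their replicate number. Dot1l(fl/+) replicate 3 stands apart for choroid plexus (594 CPM) and has the highest sum of T cell markers (2.9 CPM, mostly Lck and Cd4). Choroid plexus markers lie lower in the Dot1l(fl/fl) pools (40.0 to 46.9 CPM) than in the controls (67.5 to 157 CPM). Microglia markers lie higher in the Dot1l(fl/fl) pools (528 to 566 CPM) than in the controls (483 to 510 CPM).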

How the data were processed

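RNA of dissected midbrain was sequenced in 9 libraries, 3 per Dot1l genotype, each a pool of 3 mice aged 180 days. The deposited values are raw counts per Ensembl gene. The authors, per the labels and the methods, made directional libraries, sequenced them on a NextSeq 500 and mapped them to GRCm38.p4, with bcl2fastq 2.17, Trimmomatic 0.30 and DESeq2 1.10.1 among the tools. The aligner, the counter, its strand setting and the annotation release are not given in the sources used here, so reads of B2m and Patl2, or of Irf7 and Phrf1, may not be told apart. The authors' 3 tables of comparisons (fold changes and p-values) were not used. The design text of the series speaks of E15.75, while every label gives 180 days.

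Symbols, exon lengths and coordinates came from GENCODE M21, which held 47310 of the 47729 identifiers and 99.945% of counts. Differences were computed from the counts with edgeR 4.0.16 in R 4.3.3 (filterByExpr, 17671 genes, TMM, quasi-likelihood test, genotype as the only factor, adjusted p of 0.05), and levels as TMM-scaled CPM. Correlations used log2 CPM with a prior count of 2. DESeq2 1.42.0 and the other alternatives are given in the closing section. Python 3.11.15, scipy 1.17.1 and matplotlib 3.10.9 made the tables and figures, and the steps were tested on simulated data. The common biological coefficient of variation was 8.81%. Per the methods, every litter gave 1 animal of each genotype to the pools, so litters were matched across genotypes. The sources used here do not say that the replicate numbers of the titles mark these matched sets, and the main test leaves them out. The p-values weigh a difference between genotypes against the spread between pools of one genotype.

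All 9 members are described. From the pathway lists, genes were named with an unadjusted p under 0.05 in a comparison with Dot1l(+/+), at most 5 per list and comparison, together with genes that show which step was not detected. Other list genes, such as Isg15, Rsad2, Tap1 and the H2-Q genes, were chosen after their values were seen. The members and lists were chosen with earlier results of these data known. Psmb8, Psmb9 and Tap1 are in the class I list and the interferon-stimulated list, and Zbp1 and Trim25 are in the interferon-stimulated list and the sensor list. The values of some list genes are not reported here.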

Additional observations from a re-analysis of the deposited data

How the results depend on the processing

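Calls changed with the tool, the lack of a filter, the samples in the fit and the block, and not with either alternative scaling or the stricter filter. Genes past an adjusted p of 0.05 in Dot1l(fl/+) against Dot1l(+/+), Dot1l(fl/fl) against Dot1l(+/+) and Dot1l(fl/fl) against Dot1l(fl/+) numbered 0 in each. They were 7, 3 and 14 with DESeq2, 251, 118 and 164 with no filter, and 1 and 4 in the first 2 comparisons with only the 2 genotypes in edgeR. With a replicate block there were 3 in each comparison with Dot1l(fl/fl), and with a length and GC offset together with the replicate block 3 and 4. Leaving out each library in turn gave 0 to 5, 0 to 4 and 0 to 12. Without Dot1l(fl/+) replicate 2 the counts were 5, 4 and 12. Genes under an unadjusted p of 0.05, at 1483, 694 and 1145, ranged from 976 to 2235, from 382 to 942 and from 876 to 1752 as each library was left out, and were 1210 and 1795 with no filter in both comparisons with Dot1l(fl/fl). Litters were matched across genotypes per the methods, but nothing ties the replicate numbers to the matched sets, so the block by number may or may not be the pairing. Correlations of deviations between pools of one number were 0.317, 0.111 and 0.0898 for Dot1l(fl/+) with Dot1l(+/+), 0.312, 0.182 and 0.0222 for Dot1l(fl/fl) with Dot1l(+/+), and 0.289, 0.143 and 0.08 for the floxed groups, all above 0 and not every one over 0.1.

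Members under an unadjusted p of 0.05 numbered 2, 0 and 1. They were 0 in the first comparison with only the 2 genotypes in edgeR, 0 in the first and the last with the length and GC offset, alone or with the replicate block, 5 and 4 there with no filter, and 0 in the last with libraries thinned to the smallest total. Leaving out each library gave 0 to 4, 0 to 1 and 0 to 4. The count in the first comparison was 0 without Dot1l(fl/+) replicate 2, Dot1l(fl/+) replicate 3 or Dot1l(+/+) replicate 3, and 4 without Dot1l(fl/+) replicate 1. At an adjusted p of 0.05 a member was called only with no filter, B2m in Dot1l(fl/+) against Dot1l(+/+) (log2 difference 0.27, edgeR adjusted p = 0.0136, range of adjusted p over its alternatives 0.0136 to 0.869) and H2-K1 in Dot1l(fl/fl) against Dot1l(fl/+) (-0.40, edgeR adjusted p = 0.00232, range 0.00232 to 1). The cause was not tested.

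Directions of small differences turned when single libraries were left out. Log2 differences then ranged in Dot1l(fl/+) against Dot1l(+/+) from -0.10 to 0.48 for H2-K1, -0.43 to 0.11 for Irf7 and -0.24 to 0.01 for Ifit3. In Dot1l(fl/fl) against Dot1l(+/+) they ranged from -0.23 to 0.047 for H2-K1, -0.13 to 0.082 for H2-D1, -0.098 to 0.081 for Cd74, -0.61 to 0.055 for Irf7, -0.33 to 0.0019 for Ifit1, -0.24 to 0.10 for Ifit3 and -0.033 to 0.20 for Ifi27. In Dot1l(fl/fl) against Dot1l(fl/+) they ranged from -0.45 to 0.22 for Irf7, -0.10 to 0.18 for Ifit1, -0.13 to 0.21 for Ifit3 and -0.083 to 0.20 for Bst2. With libraries thinned to the smallest total, Cd74 in Dot1l(fl/fl) against Dot1l(+/+) was 0.075, and Irf7 and Bst2 in Dot1l(fl/fl) against Dot1l(fl/+) were 0.12 and -0.081. CPM on plain library totals moved no mean level of a member by more than the SD between pools. Irf7 and Bst2, with under 100 counts in each library, are the members whose values depth limits most.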
